A study of Mus musculus with 16 samples.

Results

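The mitochondrial ribosomal protein genes encode the protein part of the ribosome that works inside mitochondria. They were taken as the rows of the authors' deposited table whose symbol is Mrpl or Mrps followed by digits, with an end letter allowed, leaving out pseudogene names and any row whose mean normalized count was under 10. Of 30463 genes in the table, 78 had such a symbol and 77 passed the count minimum, which are 48 genes of the large subunit (Mrpl) and 29 of the small subunit (Mrps). The excluded gene was Mrpl53, with a mean normalized count of 0.378 in the authors' deposited table. The 2 members nearest the minimum were Mrps36 at 34.5 and Mrps33 at 88.4 mean normalized counts there.

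RNA sequencing was done on liver tissue of wild-type C57BL/6N mice aged 14 weeks. At 2 weeks of age mice received vehicle or diethylnitrosamine (DEN), a liver carcinogen that is activated by cytochrome P450 enzymes, and at 6 weeks they were either kept on the control diet or given a diet labelled 60% high fat until the end. The 16 samples form 4 groups of 4, namely vehicle with control diet, DEN with control diet, vehicle with the high fat diet, and the combination of DEN and high fat diet. The labels number the samples within each group and do not say whether mice were pooled.

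Values for single mice are not given here, because the library codes in the table match no sample label. What was analysed is 1 comparison made by the authors, for which their deposited table lists per gene the log2 fold change, the standard error (SE) of that change, and p-values before and after adjustment. The sides of that comparison are not named in the table. A gene with a log2 fold change above 0 is therefore said to lie on the positive side, without saying which diet or injection that is. A gene was called when its adjusted p in the authors' deposited table was below 0.05.

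The mitochondrial ribosome translates the few messenger RNAs encoded by mitochondrial DNA, which specify core subunits of the oxidative phosphorylation complexes. Its ribosomal RNAs are made in the mitochondrion, while all of its proteins are encoded in the nucleus, made in the cytosol and imported. The small subunit binds the messenger RNA and reads its codons, and the large subunit joins the amino acids and releases the growing chain at the inner membrane. Hepatocytes are rich in mitochondria, where parts of the urea cycle, fatty acid oxidation and ketone body synthesis take place.

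Most mitochondrial ribosomal protein genes had slightly higher values on the positive side, in both subunits. Of the 77 log2 fold changes in the authors' deposited table, 70 were above 0 (90.9%), with a median of 0.17, or 1.12-fold, and a range from -0.16 to 0.54. With a trend on GC content, transcript length and mean count removed, which is described further on, the median was 0.094 and 72.7% were above 0. Of all 16288 genes with an adjusted p, 49.2% were above 0, with a median of -0.0044. Of the 77 members, 12 were called, all on the positive side, or 15.6%, beside 7.51% of the 13531 tested genes that met the same minimum of 10 mean normalized counts. On the positive side alone the share of those tested genes was 4.23%. The changes were small. None of the 77 reached 1.5-fold, 13 reached 1.2-fold, and the median SE of a member was 0.092 on the log2 scale. The 95% normal interval from the authors' SE lay above 0 for 34 members, spanned 0 for 43 and lay below 0 for 0. At an unadjusted p below 0.05, 34 members (44.2%) were on the positive side, beside 10.8% of the tested genes over the count minimum. These genes share libraries and are not independent of one another, so the counts are a description and not a test of the group. In bulk tissue, fewer cells of a type and less RNA per cell cannot be told apart.

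**Figure D1:**
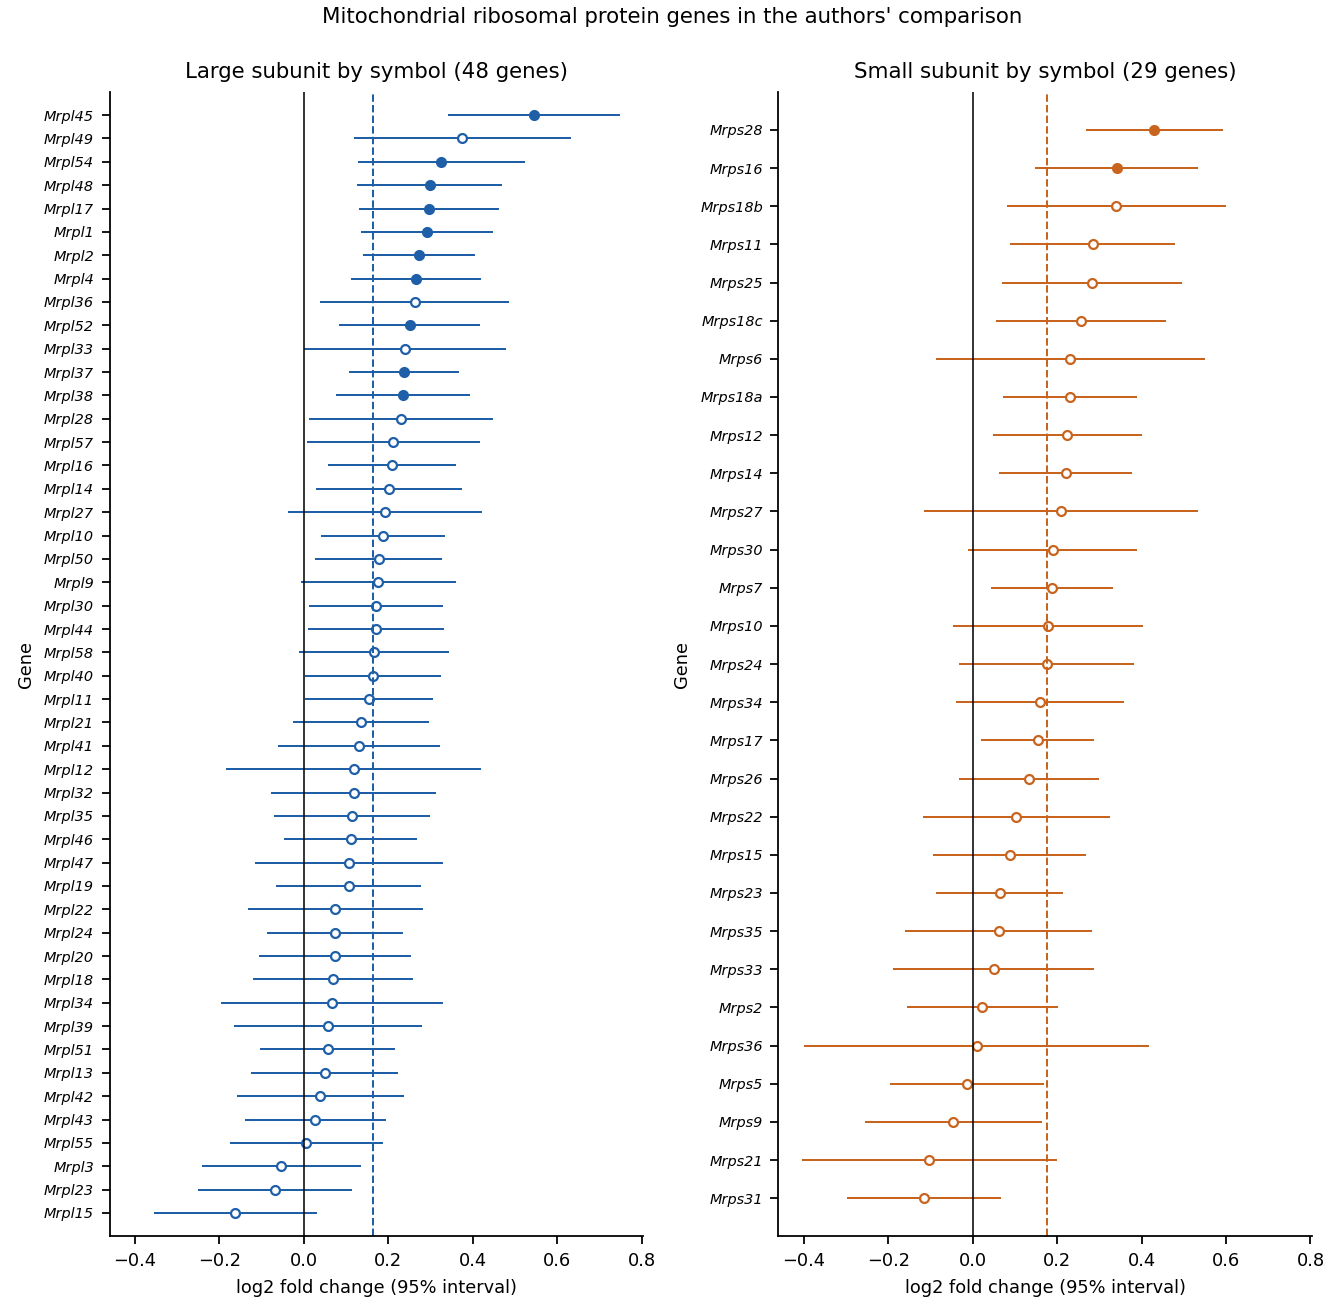
Log2 fold change of each member in the authors' comparison (x axis, points) with its 95% normal interval from the authors' SE (bars), for the 48 large subunit genes (left) and the 29 small subunit genes (right). Filled points are called at an adjusted p below 0.05, the solid line marks 0 and the dashed line the subunit's median; 70 of the 77 points lie to the right of 0, and all 12 filled points are among them.

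Among the members the widest difference was that of Mrpl45, which lies at the exit of the large subunit's tunnel and holds the ribosome at the inner membrane. Mrpl45 (ENSMUSG00000018882, chromosome 11 from 97315716 to 97329920 in GRCm38) had a log2 value of 0.54 ± 0.10 (SE), that is 1.46-fold, and an adjusted p of 1.4e-05 by the authors' deposited table. Its 95% interval ran from 0.34 to 0.75, above the subunit median of 0.16. Mrps28, the mitochondrial relative of bacterial ribosomal protein S1, was the widest of the small subunit at 0.43 ± 0.08 (log2, SE), or 1.35-fold, and had an adjusted p of 2.0e-05 by the authors' deposited table. In GRCm38, Mrps28 (ENSMUSG00000040269) spans 8802146 to 8923918 of chromosome 3. The other called small subunit gene was Mrps16, a protein of the subunit's body, at 0.34 ± 0.10 (log2 fold change and SE of the authors' deposited table, adjusted p = 0.0133).

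Promoter sequence just before the start site is shown for 4 called members, picked because it holds letters of a motif. The promoters of nuclear genes for mitochondrial proteins are known for sites of nuclear respiratory factor 1 (NRF1) and of the ETS factor GABPA. Whether such sites bear on the values was not tested. The sequences are those of RefSeq on GRCm38.p6 and read 5′ to 3′ on the gene's strand, over the 150 bases that end just before the start site. Capitals mark letters that match GCGC, any base, TGCGC in a row (NRF1), CCGGAAG (ETS factors), AAGATGGC (YY1) or CCAAT (NFY) on either strand. Among the called members with such a sequence, Mrpl1 and Mrpl48 had no match in this stretch. The ETS letters occurred there only in Mrpl52. Mrpl45 and Mrpl17 are shown for the NRF1 letters, Mrpl52 for the ETS letters and Mrpl2 for the CCAAT letters, at chr11:97315566-97315715 (plus strand), chr7:105811088-105811237 (minus strand), chr14:54426759-54426908 (plus strand) and chr17:46646079-46646228 (plus strand).
Mrpl45: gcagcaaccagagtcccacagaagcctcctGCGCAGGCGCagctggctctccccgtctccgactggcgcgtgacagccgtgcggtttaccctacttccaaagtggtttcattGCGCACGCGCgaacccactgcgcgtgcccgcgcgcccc
Mrpl17: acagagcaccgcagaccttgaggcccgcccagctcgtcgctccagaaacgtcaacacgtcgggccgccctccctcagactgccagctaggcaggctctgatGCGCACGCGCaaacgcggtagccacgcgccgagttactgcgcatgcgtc
Mrpl52: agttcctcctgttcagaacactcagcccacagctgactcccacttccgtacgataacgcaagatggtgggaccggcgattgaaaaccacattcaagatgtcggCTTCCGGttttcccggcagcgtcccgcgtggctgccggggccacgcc
Mrpl2: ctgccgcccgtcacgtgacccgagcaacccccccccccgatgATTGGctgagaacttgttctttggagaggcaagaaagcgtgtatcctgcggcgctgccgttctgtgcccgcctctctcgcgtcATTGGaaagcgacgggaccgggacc

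RefSeq promoter windows, which run from 250 bases before to 50 bases after the start site, were found for 68 of the 77 members. The ETS letters occurred in a window of 25 members (36.8%), beside 19.4% of the 10270 tested genes at or over the count minimum that had a window, and 9.93% of all 27025 genes with a window. The NRF1 letters occurred in 13 members (19.1%), beside 11.2% and 5.19% of those 2 sets. The YY1 letters occurred in 12 members (17.6%), beside 5.14% and 3.19%, and these letters hold an ATG, so a match after the start site can be a start codon. The CCAAT letters occurred in 26 members (38.2%), beside 42.9% and 41.1%. By subunit, the NRF1 letters were in 10 of 42 large and 3 of 26 small subunit genes with a window, and the ETS letters in 14 and 11 of them. Of the called members 8 had a window, with ETS letters in 4 and NRF1 letters in 2. Of the uncalled members 60 had a window, with ETS letters in 21 and NRF1 letters in 11. The called members had 14 windows in all and the uncalled ones 60, so a called member had more chances of a match. The ETS letters of Mrpl48 lay only in a window at chr7:100583081-100583380, not in the one at its annotated start. Those of Mrps16 likewise lay only in a window at chr14:20393441-20393740, not in the one at its annotated start. A match is a description of the letters and not a binding site.

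Called genes of the large subunit occurred in each of its parts named here and below. Only some of its 48 genes were assigned to a part, and the parts were chosen after the values were seen. A called gene in each part is therefore no finding about the parts. Of all tested genes over the count minimum, 7.51% were called in either direction and 4.23% on the positive side. Whether the calls differ between parts was not tested. At the peptidyl transferase region, where peptide bonds form, 1 of 4 genes was called. That gene was Mrpl2, at 0.27 ± 0.07 (log2 fold change and SE of the authors' deposited table, adjusted p = 0.00213), while Mrpl3 of the same region was at -0.05 ± 0.09 (log2, SE). Of 7 genes along the exit tunnel 3 were called, namely Mrpl45, Mrpl17 and Mrpl4. Mrpl17 was at 0.30 ± 0.08 (adjusted p = 0.0113) and Mrpl4, whose bacterial relative lines the tunnel, at 0.27 ± 0.08 (adjusted p = 0.0162), as log2 fold changes and SEs of the authors' deposited table. The tunnel also held Mrpl23, 1 of the 3 negative large subunit genes, at -0.07 ± 0.09 (log2, SE, authors' deposited table). Of 5 genes of the central protuberance 2 were called, and all 5 were above 0. Mrpl48 was at 0.30 ± 0.09 (adjusted p = 0.0162) and Mrpl38 at 0.24 ± 0.08 (adjusted p = 0.0485), as log2 fold changes and SEs of the authors' deposited table.

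The stalk recruits translation factors. All 4 of its genes were above 0, and Mrpl54 was called at 0.33 ± 0.10 (log2 fold change and SE of the authors' deposited table, adjusted p = 0.0245). Mrpl10 was at 0.19 ± 0.07 (adjusted p = 0.104), Mrpl11 at 0.15 ± 0.08 (adjusted p = 0.241) and Mrpl12 at 0.12 ± 0.15 (adjusted p = 0.745), as log2 fold changes and SEs of the authors' deposited table. Mrpl12, which is also known to bind the mitochondrial RNA polymerase, had the largest mean normalized count of the members at 1465 and the widest SE of the large subunit. The remaining called genes were Mrpl1, of the mobile arm where spent tRNA leaves, at 0.29 ± 0.08 (adjusted p = 0.00731), Mrpl37 at 0.24 ± 0.07 (adjusted p = 0.00967) and Mrpl52 at 0.25 ± 0.08 (adjusted p = 0.0448), as log2 fold changes and SEs of the authors' deposited table. Mrpl49 had the second widest value of the large subunit at 0.38 ± 0.13 and Mrpl36 was at 0.26 ± 0.11 (log2, SE), with adjusted p of 0.0567 and 0.159 in the authors' deposited table.

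In the small subunit the values lay close to those of the large one. Of 5 head genes 0 were called and 4 were above 0, with 2 below an unadjusted p of 0.05. Of 4 platform genes 0 were called and 3 were above 0, and of 5 body genes 1 was called and 4 were above 0. Mrps11 of the platform was at 0.28 ± 0.10 (adjusted p = 0.0575), and Mrps25 was at 0.28 ± 0.11 (adjusted p = 0.0914), as log2 fold changes and SEs of the authors' deposited table. The Mrps18 paralogs were alike in value. Mrps18b was at 0.34 ± 0.13 (adjusted p = 0.0980), Mrps18c at 0.26 ± 0.10 (adjusted p = 0.112) and Mrps18a at 0.23 ± 0.08 (adjusted p = 0.0563), as log2 fold changes and SEs of the authors' deposited table.

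For each of the 7 members below 0 the 95% interval spanned 0. The lowest was Mrpl15, a large subunit gene on chromosome 1 from 4773206 to 4785739 in GRCm38, at -0.16 ± 0.10 (log2 fold change and SE of the authors' deposited table, adjusted p = 0.374). The lowest small subunit gene was Mrps31 at -0.12 ± 0.09 (adjusted p = 0.539), followed by Mrps21 at -0.10 ± 0.15 (adjusted p = 0.787), Mrps9 at -0.05 ± 0.11 (adjusted p = 0.873) and Mrps5 at -0.01 ± 0.09 (adjusted p = 0.961), as log2 fold changes and SEs of the authors' deposited table. The called members nearest the threshold were Mrpl38 and Mrpl52, and the nearest uncalled ones Mrps18a and Mrpl49.

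Large and small subunit genes had nearly the same median. It was 0.16 for the 48 large and 0.17 for the 29 small subunit genes on the log2 scale of the authors' deposited table, and the values above 0 were 45 of 48 (93.8%) and 25 of 29 (86.2%). The difference of the medians, large minus small, was -0.010. Whether the subunits differ was not tested, because genes are not replicates. The sign of the difference turned when genes were placed by structure. Despite their symbols, Mrps30 and Mrps18a sit in the large subunit of the mammalian ribosome, and Mrps36 is known as a part of the 2-oxoglutarate dehydrogenase complex. With those 3 moved or left out, the medians were 0.168 and 0.167 and the difference was 0.0013. Mrps30 was at 0.19 ± 0.10 and Mrps36 at 0.01 ± 0.21 (log2 fold change and SE of the authors' deposited table).

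The share of genes called depended on the threshold. At an adjusted p below 0.05, 10 of 48 large (20.8%) and 2 of 29 small subunit genes (6.90%) were called in the authors' deposited table. The small subunit's share was thus close to the 7.51% of tested genes called in either direction and above the 4.23% called on the positive side. At a threshold of 0.10 the counts were 12 (25%) and 8 (27.6%), beside 11.1% of tested genes in either direction and 6.07% on the positive side. At 0.01 they were 4 (8.33%) and 1 (3.45%), beside 3.51% and 2.03%, so the small subunit's 1 gene was near the share of all tested genes. The difference between the subunits in calls was not tested.

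Proteins with relatives in bacterial ribosomes and those found only in mitochondria were compared next. Of 46 members with a bacterial relative 6 were called and 40 were above 0, with a median of 0.16 on the log2 scale of the authors' deposited table. Of 30 mitochondria-specific members 6 were called and 29 were above 0, with a median of 0.17. All 20 mitochondria-specific genes of the large subunit were above 0 and 6 of them were called (Mrpl37, Mrpl38, Mrpl45, Mrpl48, Mrpl52 and Mrpl54), with a median of 0.18. Of the 10 in the small subunit 0 were called in the authors' deposited table, 2 were at an unadjusted p below 0.05, and the median was 0.12. Of all tested genes over the count minimum 7.51% were called in either direction and 4.23% on the positive side. With the trend on GC content, transcript length and mean count removed, the medians were 0.095 for members with a bacterial relative, 0.098 for mitochondria-specific members, 0.115 for those in the large and 0.062 for those in the small subunit.

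Levels of the members differed far more than their log2 fold changes did. Divided by transcript length, the authors' mean normalized count was highest for Mrpl52 (1185 per kb), Mrpl12 (1113 per kb) and Mrpl20 (1006 per kb) in the large subunit and for Mrps24 (841 per kb), Mrps12 (745.5 per kb) and Mrps7 (705 per kb) in the small one. The lowest were Mrps25 (29.5 per kb), Mrps36 (49.2 per kb), Mrpl19 (49.3 per kb) and Mrpl47 (66.6 per kb). These low levels depend on the transcript chosen, since Mrps25 and Mrpl19 have long annotated transcripts of 6073 and 5000 bases. The median was 345 per kb for large and 252 per kb for small subunit genes. Across the 77 members, which share the same libraries, the log2 fold change had a Pearson's r of 0.045 (Spearman's rho -0.0046) with log2 mean normalized count. Its Pearson's r was 0.00099 (rho -0.029) with log2 transcript length and 0.18 (rho 0.19) with GC content. Called genes ranged from 70.2 per kb (Mrpl48) to 1185 per kb (Mrpl52). All members together held 0.186% of the summed mean normalized counts.

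**Figure D2:**
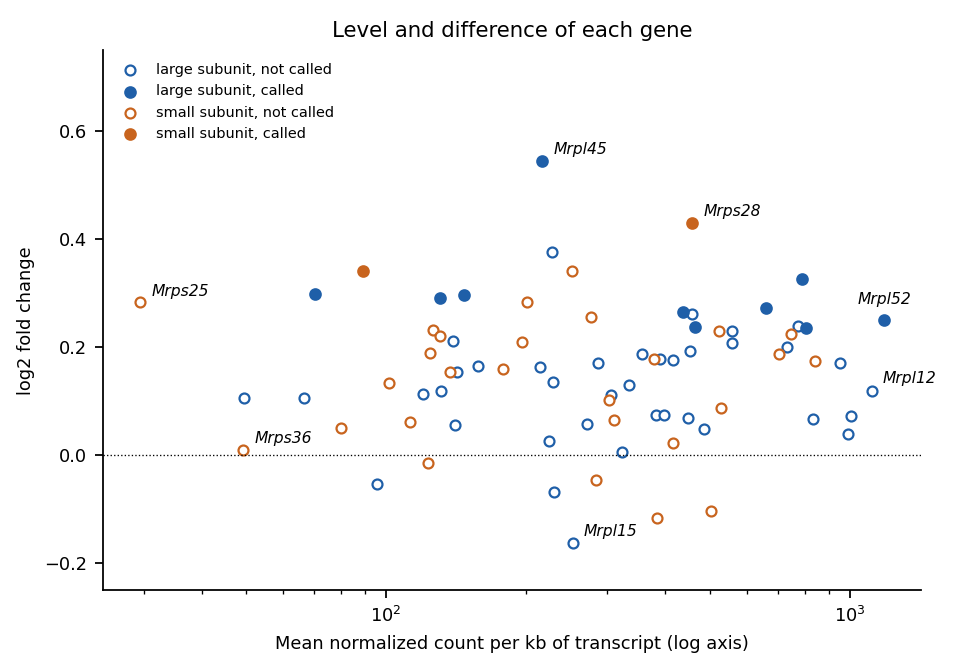
Log2 fold change in the authors' comparison (y axis) against the authors' mean normalized count per kb of transcript (x axis, log scale) for the 77 members, coloured by subunit symbol, with filled points called at an adjusted p below 0.05. Called genes occur over most of the range of levels, and Mrpl45 and Mrps28 stand above the rest.

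Short transcripts as a whole leaned to the positive side in this comparison. Over 16269 tested genes the Spearman's rho of the log2 fold change with log2 transcript length was -0.21, and the members are short, with a median transcript of 1316 bases beside 2819 bases for all tested genes. A trend on GC content, transcript length and mean normalized count, fitted over those genes, placed the members at a median of 0.094. With that trend removed, the members' median log2 fold change was 0.094 in place of 0.166 and 56 of 77 were above 0, with 0.101 for the large and 0.092 for the small subunit. The part of transcript length in the members' values was not tested further.

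**Figure D3:**
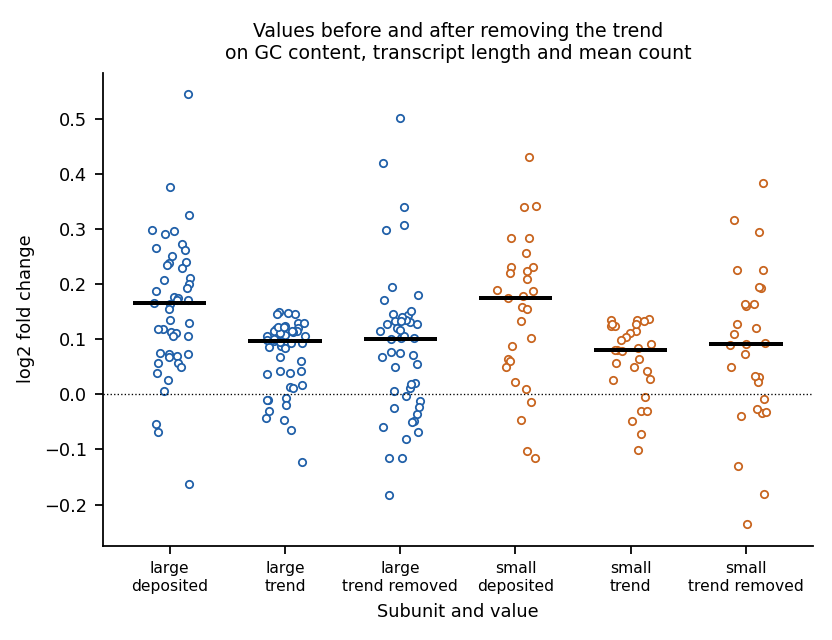
Log2 fold changes of the 48 large (blue) and 29 small (orange) subunit genes as deposited, the value that the trend on GC content, transcript length and mean count gives each gene, and the remainder. Bars mark medians; the trend has medians of 0.096 and 0.081 and the remainder 0.101 and 0.092.

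Cytosolic ribosomal proteins, which build the ribosome outside mitochondria and also have short transcripts (median 906 bases), served as a contrast. Of 75 tested genes 0 were called, 37 were above 0, and the median log2 fold change was -0.00062 in the authors' deposited table, or -0.093 with the trend removed. At an unadjusted p below 0.05 there were 2 positive and 1 negative, by the authors' test. Rpl4, the most abundant of them by mean normalized count, was at -0.08 ± 0.09 (log2 fold change and SE of the authors' deposited table, adjusted p = 0.687). Nuclear oxidative phosphorylation genes, with a median transcript of 875 bases, had 58 of 79 above 0, a median of 0.089 that became -0.027 with the trend removed, and 1 gene called, Ndufa2, at 0.42 ± 0.13 (log2 fold change and SE of the authors' deposited table, adjusted p = 0.0272). Their most abundant gene was Atp5b, at -0.04 ± 0.09 (log2, SE). The difference between the mitochondrial ribosome and these groups was not tested, because genes are not replicates.

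Other genes of mitochondrial translation were mostly above 0 as well. Of 20 genes for mitochondrial aminoacyl-tRNA synthetases and the amidotransferase that makes glutaminyl-tRNA, 6 were called positive and 0 negative in the authors' deposited table, 18 were above 0 and the median was 0.25. The amidotransferase subunits Gatb and Qrsl1 were at 0.66 ± 0.09 (adjusted p = 1.48e-10) and 0.64 ± 0.15 (adjusted p = 0.00156), while the third, Gatc, was at 0.12 ± 0.09 (adjusted p = 0.543), as log2 fold changes and SEs of the authors' deposited table. The other called genes were the synthetases for threonine (Tars2, 0.44 ± 0.08), alanine (Aars2, 0.31 ± 0.09), glutamate (Ears2, 0.41 ± 0.14) and histidine (Hars2, 0.27 ± 0.09), given as log2 fold change and SE of the authors' deposited table. These transcripts are long, with a median of 3282 bases, and the list's median with the trend removed was 0.26. Lars2 had the highest mean normalized count, 10335 beside a list median of 300, and stood apart in SE as well. It was at 0.06 ± 0.45 (log2 fold change and SE of the authors' deposited table, adjusted p = 0.968), beside a median SE of 0.11 in the list.

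Translation factors had 12 of 13 tested genes above 0, with a median of 0.16 and 1 called. It was Tsfm, the exchange factor that recycles elongation factor Tufm, at 0.43 ± 0.10 (log2 fold change and SE of the authors' deposited table, adjusted p = 0.00133). Tufm itself was at 0.19 ± 0.08 (adjusted p = 0.164), Gfm1, the most abundant, at 0.12 ± 0.08 (adjusted p = 0.417), and Oxa1l, which inserts new chains into the inner membrane, at -0.20 ± 0.09 (adjusted p = 0.181), as log2 fold changes and SEs of the authors' deposited table. Genes of ribosome assembly and ribosomal RNA modification had 23 of 26 above 0, a median of 0.16 that became 0.102 with the trend removed, and 3 called positive. Those were Mrm2, a methyltransferase of the large ribosomal RNA, at 0.43 ± 0.13, Trub2 at 0.38 ± 0.12 and the assembly factor Rcc1l at 0.32 ± 0.09 (log2 fold change and SE of the authors' deposited table). Their most abundant gene, Afg3l2, was at 0.10 ± 0.07 (log2, SE). Of 5 ribosomal proteins that carry other symbols all were above 0, with a median of 0.21 that became 0.112 with the trend removed. Gadd45gip1 was called at 0.35 ± 0.11 (adjusted p = 0.0259), and Aurkaip1, the most abundant, was at 0.21 ± 0.07 (adjusted p = 0.0687), as log2 fold changes and SEs of the authors' deposited table.

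**Figure D4:**
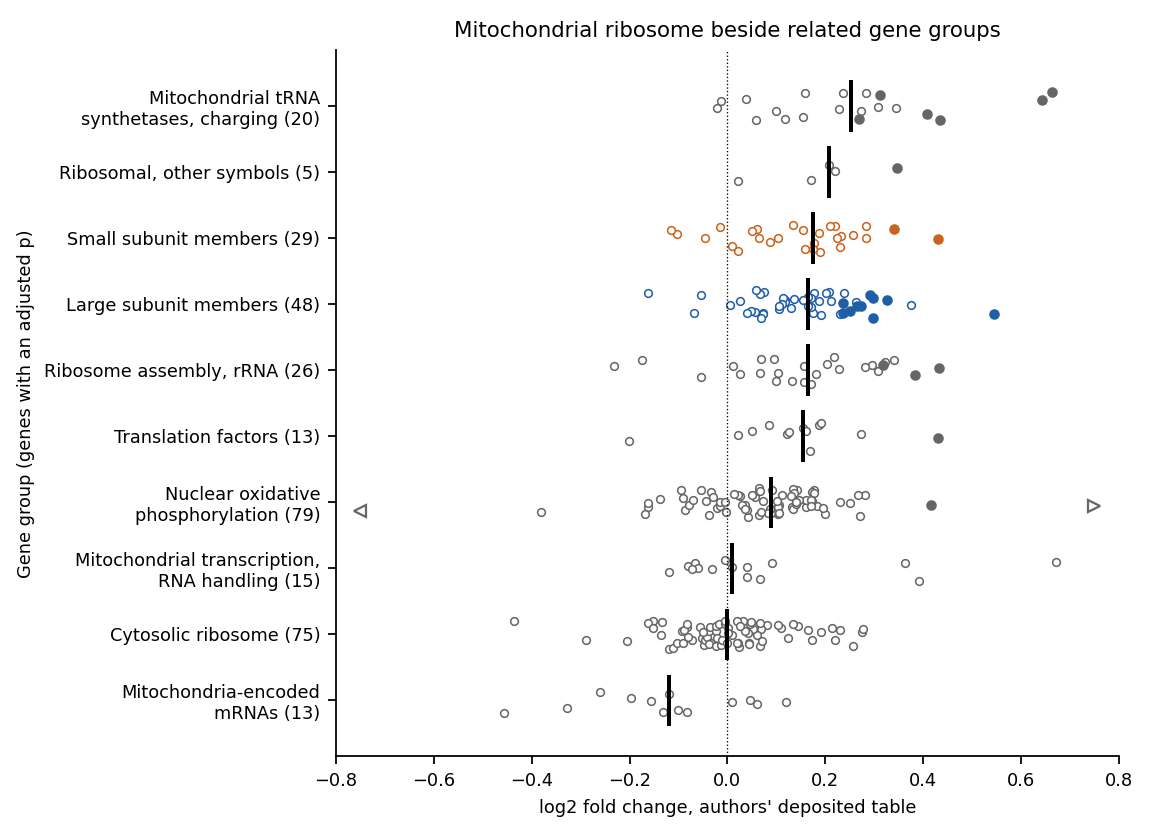
Log2 fold change in the authors' comparison (x axis) of each tested gene of the mitochondrial ribosome and of related groups, with the number of genes in brackets, filled points called at an adjusted p below 0.05 and black bars at the medians. The 2 triangles at the edges are oxidative phosphorylation genes beyond the axis; the 2 subunits have medians of 0.16 and 0.17, the tRNA charging genes 0.25 and the cytosolic ribosome -0.00062.

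The messages that the mitochondrial ribosome translates had no called gene. Of the 13 mitochondria-encoded mRNAs 4 were above 0 and 0 were called, with 0 positive and 1 negative at an unadjusted p below 0.05, and the median log2 fold change was -0.12 in the authors' deposited table. Their difference from the members was not tested. The lowest, mt-Nd5, was at -0.46 ± 0.20 (adjusted p = 0.153), and the most abundant, mt-Cytb, at -0.08 ± 0.17 (adjusted p = 0.854), as log2 fold changes and SEs of the authors' deposited table. The 4 above 0 were mt-Co2, mt-Co3, mt-Atp6 and mt-Atp8, with mean normalized counts of only 419, 653, 808 and 11.8, beside 284987 for mt-Cytb. Every mitochondria-encoded mRNA with a higher count than these was below 0, as were mt-Nd3 and mt-Nd4l at counts of 81.6 and 46.1. Levels of these mRNAs are uncertain where nuclear copies of mitochondrial DNA share reads. The part of shared reads in the low counts was not tested. Genes of mitochondrial transcription and RNA handling had 8 of 15 tested genes above 0, a median of 0.010 and 0 called, with 1 positive and 0 negative at an unadjusted p below 0.05. Hsd17b10, the most abundant of them, was at 0.39 ± 0.21 (log2 fold change and SE of the authors' deposited table, adjusted p = 0.284).

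Of 11 regulators linked to mitochondrial gene expression, 2 were called, both negative. Ppargc1a, a coactivator of mitochondrial biogenesis, was at -1.30 ± 0.22 (log2, SE, adjusted p = 5.9e-07) and Myc at -0.83 ± 0.21 (log2 fold change and SE of the authors' deposited table, adjusted p = 0.0037). Nrf1 was at -0.02 ± 0.11, Gabpa at -0.12 ± 0.09 and Yy1, the most abundant, at -0.10 ± 0.08 (log2, SE), none of them called in the authors' deposited table. Of the 11 regulators, 4 were above 0. Most members and Ppargc1a had opposite signs, and a link between them was not tested.

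The tissue label was checked on markers. The 9 hepatocyte markers found had mean normalized counts from 12999 to 1079860, with Alb the highest, and 2 of them were called negative and 0 positive, with a median of -0.23 in the authors' deposited table. Kupffer cell markers (5 of 5 below 0, 1 called, median -0.62) and sinusoidal endothelial markers (5 of 5 below 0, 0 called, median -0.41) were lower and cholangiocyte markers higher (5 of 5 above 0, 0 called, median 0.43) by the same log2 measure. T cell markers had 4 of 4 below 0 (median -0.63), neutrophil markers 3 of 3 below 0 (median -0.51), stellate cell markers 1 of 5 above 0 and B cell markers 2 of 3 above 0, with 0 called in any of these lists. Mean normalized counts were low for T cell markers (4.32 to 11.7), B cell markers (4.13 to 4.71) and the neutrophil marker Ly6g (4.32). The cholangiocyte markers Krt7, Krt19 and Epcam were at 10.3, 13.2 and 19.2 mean normalized counts. The adipocyte markers had mean normalized counts of at most 0.558. The part of cell composition in the members' values was not tested.

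Some members overlap other genes. By the GENCODE annotation of GRCm38, exons of 32 members overlap exons of another gene, for 27 of them on the opposite strand, and no source used here gives the strand setting of the counting. Of those 32 members 1 (Mrpl48, opposite Rab6a) was called, and of the 45 without overlap 11 were called, while the medians were 0.18 and 0.15 on the log2 scale of the authors' deposited table. Of all tested genes over the count minimum, 7.51% were called in either direction and 4.23% on the positive side. Whether overlap bears on the calls was not tested. Mrps11 and Mrpl46 overlap each other on opposite strands, and Mrpl46 was at 0.11 ± 0.08 (log2, SE) there, so the 2 values are uncertain. Several members also have pseudogene copies with which reads could be shared, such as Mrpl23-ps1 with a mean normalized count of 21.7 in the authors' deposited table.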

How the data were processed

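Libraries from liver RNA of 16 mice in 4 groups were made with a kit that keeps strand, per the labels' protocols. The submitters' processing notes name FastQC, Trimmomatic, HISAT2, HTSeq 0.11.1 and GRCm38 without role, order or strand setting. Per the file headers, the deposited table holds a mean normalized count (a signal), a log2 fold change and its SE, a test statistic (a score), and a p-value with its adjusted form, all by the authors. On the values it was checked that the statistic is the log2 fold change over its SE and that the adjusted p is the Benjamini-Hochberg value over 16288 genes. Neither the authors' tool and model nor the samples and sides compared were stated. A further 16 columns, named by library code, match none of the labels. They were left out, so depth and spread per sample are unknown here and each p-value rests on the authors' model.

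From the table, members were selected by symbol and mean normalized count, and their counts, medians and 95% normal intervals were computed in Python 3.11.15 with pandas 2.3.3. GENCODE release M21 gave positions, GC content and the length of the longest basic protein-coding transcript, matched by identifier for 30372 genes. The trend was a linear fit of natural splines (patsy 1.0.2) with 4 degrees of freedom each and accounted for 2.75% of the variance of the log2 fold change. Steps were tested on simulated statistics. The genes named are every called member, the 6 widest of each sign per subunit, extremes of level per kb, the Mrps18 paralogs, Mrps30, Mrps36 and Mrpl12, and in related lists the called and most abundant genes. Others named were chosen after their values were seen, as were the parts of the ribosome and the motifs. The parts include mitochondria-specific genes such as Mrpl45, Mrpl48 and Mrpl54, so bacterial homology was not their only basis. The members and lists were chosen with earlier results of these data known. Alternatives were other thresholds, count minimums, centring, weights, the trend and the placing of genes by structure. One hepatocyte marker was not found by symbol, and of 14 translation factors 13 were.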

Additional observations from a re-analysis of the deposited data

How the results depend on the processing

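Of 51 alternative values, 39 kept their sign and stayed within 1.5 times the reported value or, for the share above 0, within its 95% Wilson interval (82.4% to 95.5%, counting error only). Many of these values could hardly move, so the 39 are no measure of robustness. Of the 77 members 75 had mean normalized counts of at least 100, and dropping the minimum added only Mrpl53. Centring cannot change a difference of medians. Removing the trend on GC content, transcript length and mean count gave medians of 0.094 for all members, 0.101 for the large and 0.092 for the small subunit, and 72.7% of members above 0. The difference of the subunit medians turned from -0.010 to 0.0092 with the trend removed, to 0.0013 with genes placed by structure and to 0.0038 with means weighted by the inverse squared SE. Members called numbered 5 at a threshold of 0.01 and 20 at 0.10, with 4 large subunit genes at 0.01, and 1 and 8 small subunit genes at 0.01 and 0.10. The cause of these shifts was not tested, beyond the threshold itself for the counts. Adjusting over every gene with a p left 10 called, and the share of all tested genes under that adjustment was not computed. At 0.01 and 0.10, 3.51% and 11.1% of tested genes over the count minimum were called in either direction. On the positive side these shares were 2.03% and 6.07%. No paired analysis was possible because the library columns carry no label of any sample. For the same reason no mouse could be left out, and the authors' SE is the only measure of precision.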

Other observations

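Many mitochondrial ribosomal protein genes start next to another gene. In GENCODE, 23 of the 77 members (29.9%) had a protein-coding neighbour on the opposite strand whose start lay within 1000 bases upstream or overlapped by fewer than 200, beside 11.7% of 12328 tested protein-coding genes at or over the same count minimum of 10. The authors' deposited table tested 22 of these neighbours, of which 14 were above 0 and 0 were called, with a median log2 fold change of 0.080, and none was itself a member. Cyb5rl, whose start lies 120 bases from that of Mrpl37, was at 0.29 ± 0.11 (log2 fold change and SE of the authors' deposited table, adjusted p = 0.0896). Apba3 beside Mrpl54 was at 0.19 ± 0.12 (adjusted p = 0.424) and Klc4 beside Mrpl2 at -0.08 ± 0.10 (adjusted p = 0.725), by the same measures of the authors' deposited table. Mrps12 and Sars2, the mitochondrial synthetase for serine, start 172 bases apart and had log2 fold changes of 0.22 and 0.16 there. These pairs were chosen after their values were seen.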
